A study of Mus musculus with 6 samples.

Results

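The genes described here carry iron into the mitochondrion, take it up, reduce, store and export it, or sense it. They are Slc25a37, Slc25a28, Tfrc, Steap3, Slc11a2, Fth1, Ftl1, Slc40a1, Aco1 and Ireb2, and each of the 10 had at least 1 listed ATAC-seq peak in mouse T follicular helper (Tfh) cells. All peaks whose gene symbol was a member were taken, which gave 61 of 282898 peaks in all. Slc25a37 was chosen by measured values, namely the higher level of its start-site peak in the Stat6 knockout libraries. Its difference between the genotypes is therefore given as a description with no test. The other 9 genes were added to see whether iron genes share that difference.

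ATAC-seq cuts accessible DNA with a transposase, and the reads in a peak measure how open the chromatin is there. The study sorted 3 Tfh populations, Tfh21, Tfh214 and Tfh4, from untreated C57BL/6 mice that were wild type (WT) or knockout (KO) for Stat6, the transcription factor activated by interleukin-4. Each group was 1 library from 50000 cells, sorted from 10 mice per genotype, and age, tissue and the Stat6 allele are not given in the sources used here. With 1 pool of mice per genotype and 1 library per group, an effect of genotype and one of the pool or the preparation cannot be told apart. The 3 libraries of a genotype are not stated to come from separate mice. The p-values below set a difference against scatter that genotype and population leave unexplained among the 6 libraries. For each peak or gene, the main fits drew that scatter towards the typical scatter at a similar level. None of the p-values measures variation between mice.

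Cells import iron bound to transferrin through the transferrin receptor, reduce it in the endosome and pass it to the cytosol, where ferritin stores what is not used and ferroportin exports the excess. The iron regulatory proteins bind iron-responsive elements in the mRNAs of several of these genes and so adjust uptake and storage to the iron supply. In mitochondria, the mitoferrins bring in the iron for heme and for iron-sulfur clusters. Slc25a37 (mitoferrin 1) is best known from developing red cells, and activated T cells are known for their high demand for transferrin iron.

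The libraries held 798555 (KO Tfh214) to 1373218 (WT Tfh4) reads in peaks, recovered as whole reads from the deposited CPM (counts scaled to the same total in each library). Start-site peaks took 27.6% to 31.5% of the reads in WT and 29.7% to 36.4% in KO libraries, and the KO library had the higher share in each population. A list of 9 T cell and Tfh genes summed to 417 to 565 CPM. A list of 8 B cell genes (Cd79a and Ms4a1 with no listed peak) summed to 126 to 164 CPM in WT and 109 to 133 CPM in KO libraries. A list of 10 myeloid genes (Elane and S100a8 with no listed peak) summed to 86.5 to 99.8 CPM in WT and 60.1 to 87.2 CPM in KO libraries. Both sums were lower in KO than in WT in each of the 3 populations. A list of 14 erythroid genes, the lineage for which Slc25a37 is best known, summed to 87.3 to 115 CPM in WT and 63.9 to 126 CPM in KO libraries. Of those erythroid genes, 5 had no listed peak, Gata1, Hba-a2, Hbb-b1, Hbb-b2 and Hbb-bt. The lowest and the highest erythroid sum were both in KO libraries, Tfh214 (63.9 CPM) and Tfh4 (126 CPM). The part of any other cell type in the results was not tested. At Stat6 itself, 6 peaks had 1.21 times the WT level in KO (95% interval 0.974 to 1.49), which checks no genotype label because the deleted part is not given in the sources used here.

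Of the 61 peaks, 31 lay in introns, 11 were called start-site (TSS) peaks, 9 lay in exons of 5' untranslated regions, 7 at transcript ends and 3 in coding exons. The 11 start-site peaks held 2056 reads over the 6 libraries, the 31 intronic peaks 484. A mean of at least 20 reads per library was required for a test, and 7 of the 61 peaks had it. These were the start-site peaks of Slc25a37, Tfrc, Slc11a2, Fth1, Ftl1, Aco1 and Ireb2. Summed over its peaks, each gene but Slc25a28 (44 reads in all) and Slc40a1 (23 reads) had enough reads for the gene-level test. Coordinates of peaks are in mm9, as deposited.

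The RefSeq promoter table (GRCm38.p6) matched 7 of the 10 genes and had no entry for Slc25a37, Slc11a2 and Slc40a1. Aco1 and Ftl1 are shown because their start-site peaks, among the highest and the lowest by level per length below, cover at least 250 bases before the deposited start and because each has a single table window that ends at the gene's start. The sequences are the 250 bases before the start, 5′ to 3′ on the gene's strand, at chr4:40143015-40143264 (plus strand) and chr7:45459887-45460136 (minus strand) of GRCm38.p6. Capitals mark matches to the GC box GGGCGG and the CCAAT box CCAAT on either strand.
Aco1: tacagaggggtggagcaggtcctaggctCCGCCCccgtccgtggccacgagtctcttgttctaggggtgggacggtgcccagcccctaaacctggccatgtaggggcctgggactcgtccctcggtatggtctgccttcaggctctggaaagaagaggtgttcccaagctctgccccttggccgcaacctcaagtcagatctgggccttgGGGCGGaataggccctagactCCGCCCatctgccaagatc
Ftl1: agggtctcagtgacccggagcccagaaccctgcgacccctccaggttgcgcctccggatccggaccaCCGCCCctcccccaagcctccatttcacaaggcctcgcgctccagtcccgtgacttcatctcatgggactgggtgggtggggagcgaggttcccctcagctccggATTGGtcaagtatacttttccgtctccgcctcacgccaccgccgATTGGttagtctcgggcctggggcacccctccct
The Aco1 window holds 3 GC boxes, and the Ftl1 window 1 GC box and 2 CCAAT boxes. Over 1 window for each of the 7 matched genes, 4 held a GC box, against 32.7% of 32851 mouse windows of that length, and 3 held CCAAT, against 33.8%. Among the 7, the windows of Slc25a28, Ireb2 and Steap3 do not end at the gene's start. Tfrc and Fth1 have 2 windows each and Steap3 has 4, of which 1 was used. The Fth1 window used has 34.8% GC and 3 CpG, against medians of 52.4% and 6 over all windows. Whether it lies at the measured Fth1 peak was not tested. The STAT6-type motif TTCNNNNGAA was in 0 of the 7 windows and in 5.85% of all windows. The other STAT-type motif TTCNNNGAA (7.02% of all windows), the antioxidant response type TGACNNNGC (10.2%) and the ETS type CCGGAA (12.03%) were also in 0 of the 7. A match is a run of letters and not a binding site, and 0 matches says only that these letters are not in these windows.

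Slc25a37 had 16 peaks on chromosome 14, 1 at the start site and 15 in introns 1 and 2, and 711 reads in all. The start-site peak (69902314 to 69903372, from 211 bases before to 847 after the deposited start) held 64.1% of them. In the WT libraries it stood at 56.1 CPM in Tfh21, 53.5 in Tfh214 and 42.2 in Tfh4. In the KO libraries it stood at 85.6 CPM in Tfh21, 111 in Tfh214 and 71.0 in Tfh4. All KO libraries lay above all WT libraries, KO Tfh214 was the highest and WT Tfh4 the lowest. The reads behind these levels were 63, 68 and 58 in WT and 90, 89 and 88 in KO. Their KO to WT ratio was 1.53 (95% interval 1.09 to 2.14) in Tfh21, 2.08 (1.503 to 2.90) in Tfh214 and 1.68 (1.19 to 2.39) in Tfh4. These intervals, exact binomial like those of every ratio below, cover counting error only: reads that are PCR copies of 1 molecule are counted as if separate. The fitted difference of log2(CPM + 1) was 0.79 ± 0.11 (SE), the 9th highest of 8986 tested peaks, whose median was 0.19. The peak was chosen on this contrast, so that rank supports nothing.

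**Figure D1:**
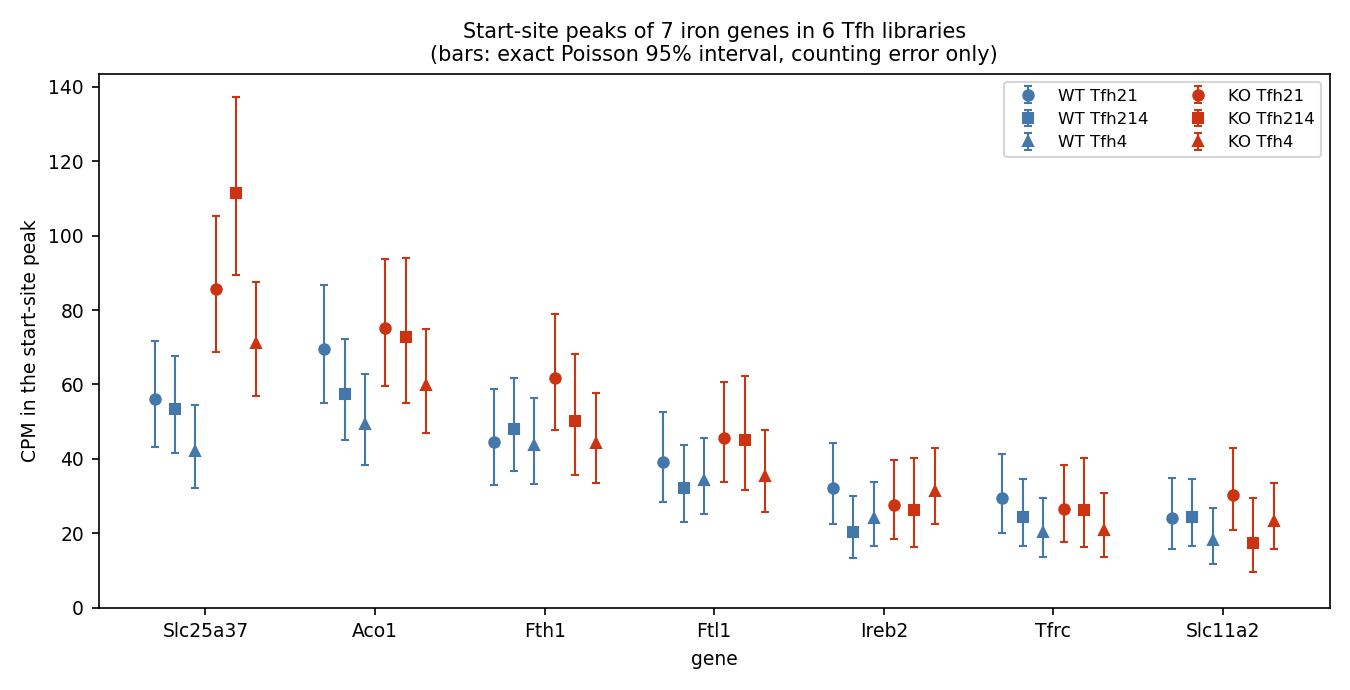
CPM (vertical axis) in the start-site peak of 7 iron genes (horizontal axis), 1 point for each library (blue WT, red KO; shape gives the population) with its exact Poisson 95% interval. The KO points of Slc25a37 (71.0 to 111 CPM) lie above its WT points (42.2 to 56.1 CPM), while the WT and KO points of the other 6 genes overlap. Slc25a37 was chosen on this contrast, so nothing is read from its separation.

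The intronic peaks of Slc25a37, which are of the same contrast and so also a description, were higher in KO when summed. They stood at 24.05 (Tfh21), 22.8 (Tfh214) and 37.1 CPM (Tfh4) in WT libraries, against 44.7, 52.6 and 47.6 CPM in the KO counterparts. Each KO library was above each WT library, and WT Tfh4 was the highest of the WT libraries here while it was the lowest at the start site. With median-of-ratios scaling the genotypes overlapped in these peaks, with WT Tfh4 at 44.0 and KO Tfh21 at 37.9. The KO to WT ratio of the 15 peaks together was 1.69 (1.31 to 2.18), with 1.86 (1.13 to 3.10) in Tfh21, 2.31 (1.40 to 3.84) in Tfh214 and 1.28 (0.867 to 1.90) in Tfh4. With that scaling it was 1.49 (1.15 to 1.92) together and 1.58 (0.962 to 2.63) in Tfh21. Of the 15 peaks, 13 had a pooled KO level above the WT level, against 46.3% of all 262862 peaks away from start sites, and nothing is read from that count because the gene was chosen on this contrast. The largest single ratio with an interval above 1, picked after values were seen, was in intron 1 (69894610 to 69895272, beginning 7889 bases after the deposited start). It held 6, 7 and 11 reads in KO Tfh21, Tfh214 and Tfh4 against 1, 1 and 5 in WT, a ratio of 4.18 (1.75 to 11.5).

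Over all 16 peaks, Slc25a37 stood at 80.2 (Tfh21), 76.3 (Tfh214) and 79.4 CPM (Tfh4) in WT libraries, against 130, 164 and 119 CPM in the KO counterparts. The WT libraries lay close together and each KO library above them, while the Poisson intervals of the KO libraries overlapped each other. Those were 109 to 154 CPM in Tfh21, 137 to 195 in Tfh214 and 100 to 139 in Tfh4. With median-of-ratios scaling the WT libraries stood at 80.1 (Tfh21), 76.5 (Tfh214) and 94.1 (Tfh4), against 110, 147 and 125 in the KO counterparts. The pooled ratio was 1.71 (1.47 to 1.99), and 1.51 (1.29 to 1.75) when libraries were scaled by median-of-ratios size factors, which take out the shift of strong peaks between libraries. Without both Tfh214 libraries, an alternative added after the data were seen because KO Tfh214 was the shallowest, the ratio was 1.56 (1.29 to 1.87) over all peaks. For the start-site peak alone it was then 1.60 (1.27 to 2.04). At the start site the scaled ratio was 1.52 (1.25 to 1.84), and 1.29 (0.927 to 1.815) in Tfh21. The share of reads at start sites was also higher in KO, and the B cell and myeloid sums were lower, and their part in the difference was not tested.

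**Figure D2:**
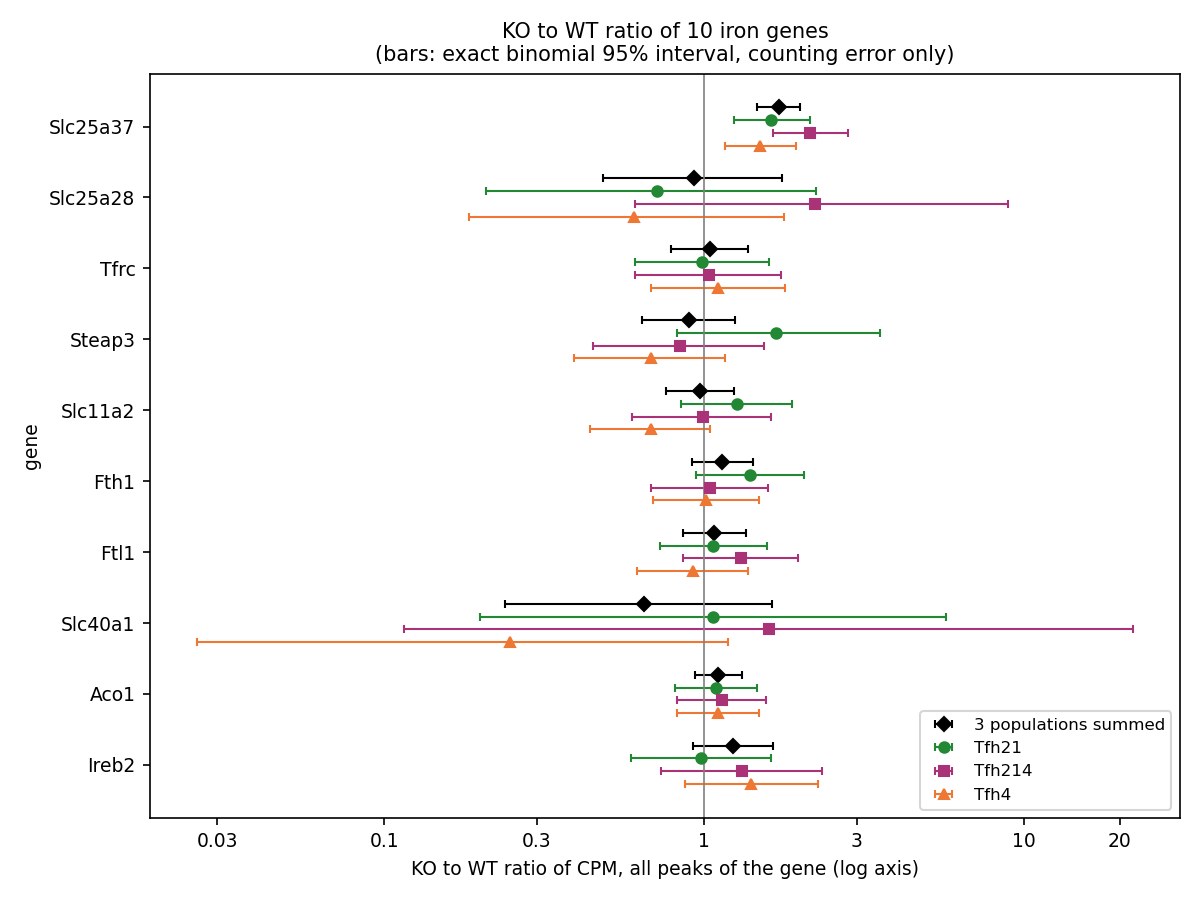
KO to WT ratio of CPM over all peaks of each of 10 iron genes (log axis), for the 3 populations summed (black) and for each population (colours), with exact binomial 95% intervals. Every interval of Slc25a37 lies above 1, from a ratio of 1.495 in Tfh4 to 2.15 in Tfh214, and every interval of the other 9 genes includes 1. Slc25a37 was chosen on this contrast, so nothing is read from its intervals. Those of Slc25a28 (44 reads) and Slc40a1 (23 reads) are wide.

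Slc25a28 encodes mitoferrin 2, the more widely expressed relative of mitoferrin 1. Its 3 peaks on chromosome 19 lay in introns 1 and 2 and at the transcript end, and none under its symbol was at a start site. Summed, they stood at 8.02 (Tfh21), 3.93 (Tfh214) and 8.01 CPM (Tfh4) in WT libraries, against 5.71, 8.77 and 4.84 CPM in the KO counterparts. The genotypes overlapped, KO was above WT in 1 of 3 populations, and the ratio of 0.927 (0.483 to 1.75) rested on 19 KO and 25 WT reads. A difference of the size seen at Slc25a37 lies within that interval.

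Tfrc, the transferrin receptor, had 5 peaks on chromosome 16, led by the start-site peak at 32608835 to 32609407. It stood at 29.4 (Tfh21), 24.4 (Tfh214) and 20.4 CPM (Tfh4) in WT libraries, against 26.6, 26.3 and 21.0 CPM in the KO counterparts. The genotypes overlapped throughout, and in both of them Tfh4 was the lowest. The fitted KO to WT difference was 0.00 ± 0.19 (SE) on the log2(CPM + 1) scale, with an adjusted p of 0.995 by limma. Its reads gave a ratio of 0.995 (0.723 to 1.36), an interval of counting error only. The 4 other peaks of Tfrc held 10 to 13 reads each.

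Steap3 reduces endosomal iron so that it can leave the endosome. Its reads were spread over 11 peaks on chromosome 1 with 10 to 19 reads each, 3 of them at start sites, so no single peak was tested. Summed, it stood at 12.5 (Tfh21), 26.7 (Tfh214) and 28.4 CPM (Tfh4) in WT libraries, against 20.9, 22.5 and 19.4 CPM in the KO counterparts. WT Tfh21 was the lowest and the other 5 libraries overlapped. The KO to WT ratio was 1.68 (0.821 to 3.55) in Tfh21, 0.843 (0.448 to 1.54) in Tfh214 and 0.682 (0.392 to 1.16) in Tfh4. Pooled, it was 0.897 (0.640 to 1.25), and limma gave an adjusted p of 0.986.

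Slc11a2 encodes DMT1, which carries ferrous iron out of the endosome. Its start-site peak (chromosome 15, 100253301 to 100253855) stood at 24.05 (Tfh21), 24.4 (Tfh214) and 18.2 CPM (Tfh4) in WT libraries, against 30.4, 17.5 and 23.4 CPM in the KO counterparts. The genotypes overlapped, with the highest and the lowest library both KO. The fitted difference was 0.07 ± 0.21 (SE; adjusted p = 0.859, limma). Away from the start site its 8 peaks held 22, 14 and 35 reads in WT and 26, 14 and 8 in KO. The KO to WT ratio there was 1.26 (0.688 to 2.34) in Tfh21, 1.59 (0.704 to 3.60) in Tfh214 and 0.253 (0.102 to 0.556) in Tfh4. The Tfh4 interval lies below those of the other populations' ratios, but the difference between populations was not tested, and each value is 1 library against 1. Over all 9 peaks the Slc11a2 ratio was 0.974 (0.762 to 1.24).

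Fth1 and Ftl1 encode the heavy and light chains of ferritin, and both have near-identical processed copies elsewhere in the genome, so their reads are uncertain where the mapping could have split them. The single peak of Fth1 (chromosome 19, 10056822 to 10057788) stood at 44.5 (Tfh21), 48.0 (Tfh214) and 43.7 CPM (Tfh4) in WT libraries, against 61.8, 50.1 and 44.4 CPM in the KO counterparts. KO was above WT in 3 of 3 populations, by little in Tfh214 and Tfh4, and KO Tfh4 lay below WT Tfh214. With median-of-ratios scaling the KO to WT ratio was 1.18 in Tfh21, 0.933 in Tfh214 and 0.905 in Tfh4. Without that scaling the pooled Fth1 ratio was 1.14 (0.914 to 1.42), and the fitted difference was 0.18 ± 0.13 (SE, adjusted p = 0.419 by limma). The start-site peak of Ftl1 (chromosome 7, 52714572 to 52715519) stood at 39.2, 32.2 and 34.2 CPM in WT and at 45.7, 45.1 and 35.5 CPM in KO. KO was again above WT in 3 of 3 populations, and KO Tfh4 lay below WT Tfh21. With median-of-ratios scaling the Ftl1 ratio was 0.988 in Tfh21, 1.25 in Tfh214 and 0.925 in Tfh4. By log2(CPM + 1) without that scaling, the median of all tested peaks was also higher in KO, by 0.19. The fitted difference of Ftl1 was 0.25 ± 0.15 (SE; adjusted p = 0.338, limma), the highest of the 6 tested start sites besides Slc25a37.

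Slc40a1 encodes ferroportin, the exporter of iron. Its only peak (chromosome 1, 45983023 to 45983467) lay before the deposited start and held 4 (Tfh21), 2 (Tfh214) and 9 reads (Tfh4) in WT, against 4, 2 and 2 in the KO counterparts. The ratio was 0.651 (0.239 to 1.63), and a difference by genotype was not detectable at this depth.

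Aco1 and Ireb2 encode the iron regulatory proteins, and Aco1 is also the cytosolic aconitase. The start-site peak of Aco1 (chromosome 4, 40089740 to 40090800) stood at 69.5 (Tfh21), 57.4 (Tfh214) and 49.5 CPM (Tfh4) in WT libraries, against 75.2, 72.6 and 59.7 CPM in the KO counterparts. KO was above WT in 3 of 3 populations and Tfh4 was the lowest in both genotypes, but KO Tfh4 lay below WT Tfh21. With median-of-ratios scaling KO was below WT in Tfh21 (63.7 against 69.4). It was above WT in Tfh214 (65.0 against 57.6) and Tfh4 (63.1 against 58.7). The fitted difference of log2(CPM + 1) was 0.24 ± 0.12 (SE, adjusted p = 0.227 by limma). The 8 other Aco1 peaks gave a ratio of 0.902 (0.615 to 1.31). The peak at the end of the transcript (40145158 to 40145570), named after its values were seen, held 1, 4 and 5 reads in WT and 0 in each KO library.

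The start-site peak of Ireb2 (chromosome 9, 54711176 to 54711911) stood at 32.1 (Tfh21), 20.4 (Tfh214) and 24.03 CPM (Tfh4) in WT libraries, against 27.6, 26.3 and 31.5 CPM in the KO counterparts. KO lay above WT in 2 of 3 populations, and WT Tfh21 was the highest library. The fitted difference was 0.17 ± 0.19 (SE; adjusted p = 0.596, limma). The neighbouring intron 1 peak of Ireb2 held 0, 3 and 1 reads in WT and 4, 3 and 4 in KO.

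Set side by side, the differences of the other iron genes lay near the median of all peaks. Of the 6 other tested start-site peaks, 0 passed an adjusted p of 0.05 (limma, Benjamini-Hochberg over 8986 peaks), against 0.857% of all tested peaks, and their adjusted p-values ran from 0.227 to 0.995. At an unadjusted p under 0.05 by limma it was 1 of the 6 (Aco1), against 1885 of all 8986 tested peaks. By edgeR 0 of the 6 passed. Their differences ran from 0.00 (Tfrc) to 0.25 (Ftl1) with a median of 0.18, and 4 of the 6 lay below the median of all tested peaks, 0.19. Median-of-ratios scaling takes that median out, and the values of Tfrc, Slc11a2, Ireb2 and Fth1 then were -0.18, -0.11, -0.01 and -0.0028. Of the 7 tested start sites, Slc25a37 alone had all KO libraries above all WT libraries, which 13.4% of all tested peaks had, while 0.323% had all KO libraries below. Summed over peaks, 0 of the 7 other genes passed the test (0 by edgeR), against 0.0554% of 10825 genes. At an unadjusted p under 0.05 by limma it was 0 of the 7, against 1202 of 10825 genes. The differences of the 7 ran from -0.07 (Slc11a2) to 0.28 (Ireb2). Of the pooled ratios, the intervals of the other 9 genes included 1, while 8.3% of all tested genes had an interval above and 4.26% one below. The interval of Slc25a37 lay above 1. That gene was chosen on this contrast, so nothing is read from its interval or from the separation of its libraries.

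**Figure D3:**
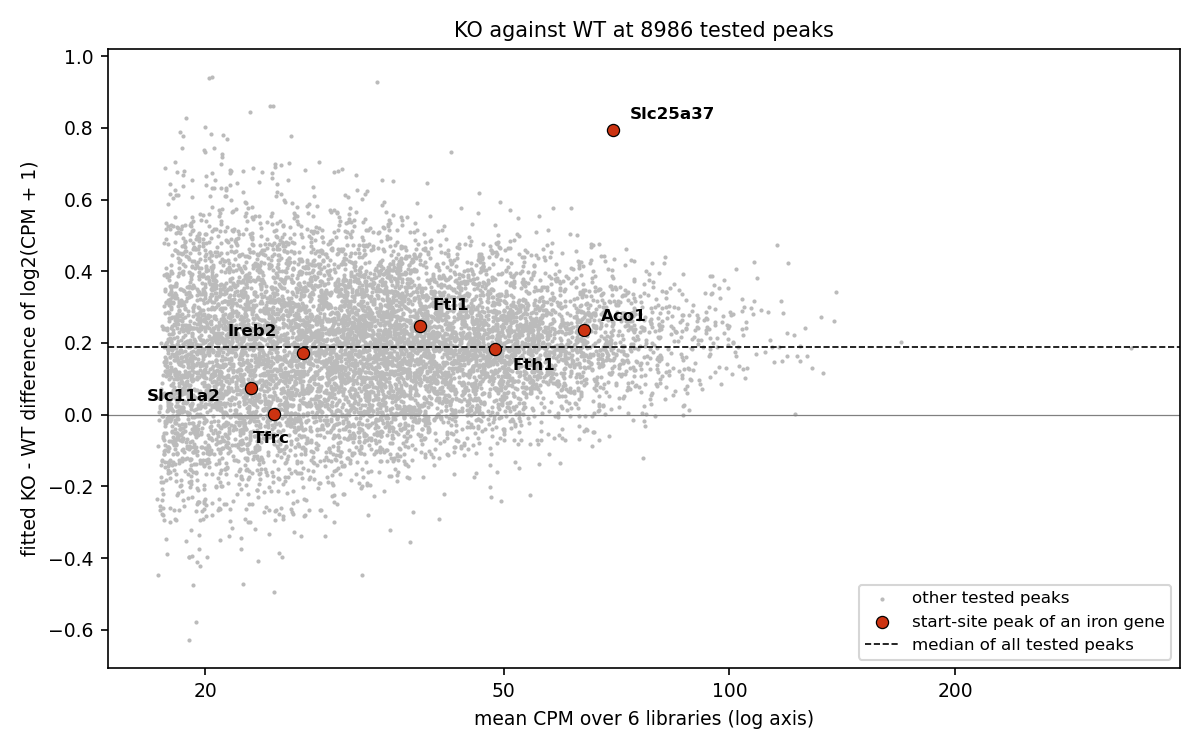
Fitted KO minus WT difference of log2(CPM + 1) against mean CPM (log axis) for 8986 tested peaks (grey) and 7 start-site peaks of iron genes (red), with the median of all tested peaks dashed. Slc25a37, chosen on this contrast, lies at 0.79 and the other 6 lie between 0.00 and 0.25, around the median of 0.19.

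By level per length, in CPM per kb of peak and averaged over the 6 libraries, the order of the start sites was Slc25a37 (66.2), Aco1 (60.4), Fth1 (50.5), Tfrc (43.1), Slc11a2 (41.5), Ftl1 (40.8) and Ireb2 (36.7). Over the WT libraries alone Aco1 was first, at 55.5 ± 9.48 (SD, n = 3 populations), ahead of Slc25a37 at 47.8 ± 6.96 and Fth1 at 47.0 ± 2.34. In the KO libraries Slc25a37 was first at 84.5 ± 19.3, ahead of Aco1 at 65.3 ± 7.80. Ranges over all 6 libraries overlapped for each pair of neighbours in this order. Library by library, Aco1 lay above Fth1 in 6 of 6, and Slc25a37 lay above Aco1 in 3 of 3 KO libraries and in 0 of 3 WT libraries. Fth1 lay above Tfrc in 5 of 6 libraries, and each later gene above the next in 3 or 4 of 6.

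Between the populations, Slc25a37 was the only member that passed the test at its start site, and only in 1 of the 3 contrasts. Its level fell by 0.49 ± 0.14 (SE) on the log2(CPM + 1) scale from Tfh214 to Tfh4 (adjusted p = 0.0483, limma), lower in Tfh4 in both genotypes. In that contrast 1.98% of all tested peaks passed, and the median peak stood at -0.23. Of the other 6 members 0 passed by limma or by edgeR. At an unadjusted p under 0.05 by limma it was 0 of those 6, against 1999 of 8986 peaks. With median-of-ratios scaling the value was -0.25 (adjusted p = 0.917, limma), and without the KO Tfh214 library it was -0.30 (adjusted p = 0.362, limma), so the call depended on the scaling and on that library. It was also lost without either Tfh21 library or either Tfh4 library (adjusted p = 0.0756 to 0.140, limma), and kept without WT Tfh214. Summed over its peaks, Slc25a37 differed by -0.20 ± 0.15 (SE; adjusted p = 0.658, limma), since its intronic peaks were not lower in Tfh4. These stood at 42.1 CPM in Tfh4 against 34.3 in Tfh214 with the genotypes summed.

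From Tfh21 to Tfh4 the start-site peaks of all 7 tested members had a negative difference, and 0 passed the test (limma), against 1.31% of all tested peaks. Of the 6 besides Slc25a37, 1 had an unadjusted p under 0.05 by limma, against 2341 of 8986 peaks, and edgeR called 0. Aco1 came nearest, at -0.40 ± 0.14 (SE; adjusted p = 0.0856, limma), Slc25a37 stood at -0.33 ± 0.14 (adjusted p = 0.130, limma) and Tfrc at -0.42 ± 0.24 (adjusted p = 0.242, limma). The median of all tested peaks was -0.27, and 3 of the 6 members besides Slc25a37 lay below it. Between Tfh214 and Tfh21, 0 members passed, as did 0 (0%) of all tested peaks by limma or by edgeR, 345 of which had an unadjusted p under 0.05. At gene level 0 members and 0 (0%) of all genes passed by limma in each of the 3 population contrasts, while 552 to 1377 genes had an unadjusted p under 0.05 and edgeR called 0 or 1. The lowest gene-level difference among members was that of Slc11a2, -0.47 ± 0.22 (SE) in Tfh214 against Tfh21 (adjusted p = 0.953, limma), the only 1 of the 7 with an unadjusted p under 0.05 in a population contrast. The ratio of its reads was 0.716 (0.525 to 0.974), while median-of-ratios scaling gave 0.747 (0.547 to 1.015). The highest was that of Steap3, 0.57 ± 0.32 (SE) in Tfh214 and 0.51 ± 0.32 in Tfh4 against Tfh21, with adjusted p-values of 0.967 and 0.483 by limma. The WT libraries of Steap3 stood at 12.5 CPM in Tfh21 and at 26.7 and 28.4 in the others, while the KO libraries were within 19.4 to 22.5.

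The neighbourhood of Slc25a37 was examined because the start-site peak of Entpd4, a nucleoside diphosphatase gene, was also higher in KO. Slc25a37 lies on the minus strand, and that peak (69954986 to 69955556) is 52.7 kb upstream of its start-site peak. It stood at 19.6 (Tfh21), 18.9 (Tfh214) and 13.1 CPM (Tfh4) in WT libraries, against 30.4, 33.8 and 30.7 CPM in the KO counterparts. All KO libraries lay above all WT libraries, which 13.4% of all tested peaks had, and the ratio was 1.85 (1.33 to 2.58). The fitted difference was the 4th highest of all tested peaks, 0.86 ± 0.20 (SE; adjusted p = 0.0325, limma). The Entpd4 peak was picked on this contrast, so its rank and its adjusted p support nothing. The Entpd4 call was lost with median-of-ratios scaling, at 0.68 (adjusted p = 0.711, limma), and without either Tfh21 or either Tfh4 library (adjusted p = 0.0989 to 0.380, limma). Among the other peaks within 200 kb with a mean of at least 5 reads, the start-site peaks of Synb and 1700092C10Rik and an intergenic peak 34.3 kb upstream each had an interval that included 1.

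Peaks away from start sites were then summed in windows of 50 kb. The window with the Slc25a37 introns and the 4 next to it upstream, chosen after their values were seen as the unbroken run of ratios above 1, cover 250 kb of chromosome 14 (69850001 to 70100000). Their KO to WT ratios were 1.61 (1.26 to 2.05), 1.40 (1.12 to 1.75), 1.08 (0.838 to 1.39), 2.01 (1.53 to 2.64) and 1.33 (1.004 to 1.76). The intervals of 4 of the 5 windows lay above 1, against 4.15% of 15934 windows with at least 100 reads, of which 8.16% had an interval below 1. The run was chosen on these ratios, so nothing is read from that count. The 82 peaks of the run together gave 1.45 (1.29 to 1.61), and 1.39 (1.23 to 1.57) without those of Slc25a37. The 31 of them without a gene symbol gave 1.2997 (1.09 to 1.55).

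**Figure D4:**
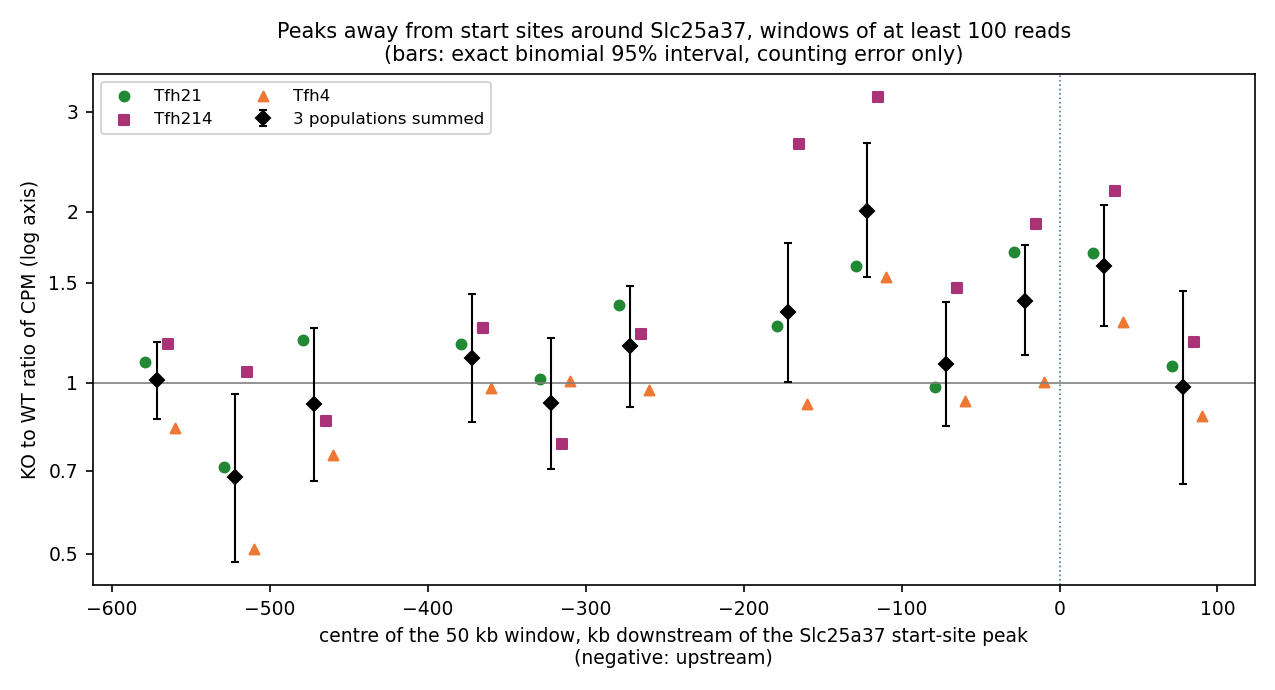
KO to WT ratio of CPM (log axis) in 50 kb windows against the distance of the window's centre from the Slc25a37 start-site peak (dotted line; positive is downstream, into the gene), over peaks away from start sites and in windows with at least 100 reads. Black points with exact binomial 95% intervals are the populations summed, and coloured points without bars are each population; the 5 windows from 28.2 kb downstream to 172 kb upstream lie above 1.

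By population, the ratio of the run was 1.43 (1.16 to 1.77) in Tfh21, 2.19 (1.79 to 2.69) in Tfh214 and 1.09 (0.918 to 1.29) in Tfh4, each 1 library against 1. No test compared these ratios with each other. Without both Tfh214 libraries it was 1.21 (1.06 to 1.38), and 1.15 (0.993 to 1.34) when the Slc25a37 peaks were also left out. With median-of-ratios scaling it was 1.27 (1.14 to 1.42), 1.23 (1.08 to 1.39) without the Slc25a37 peaks and 1.14 (0.957 to 1.37) for the peaks without a symbol. On either side, 200 kb gave 0.897 (0.683 to 1.17) downstream and 1.06 (0.918 to 1.21) upstream, and all peaks away from start sites in the genome gave 0.952. Loxl2, a lysyl oxidase gene in the run, stood at 43.6 (Tfh21), 34.6 (Tfh214) and 53.9 CPM (Tfh4) in WT libraries, against 65.6, 113 and 63.8 CPM in the KO counterparts over its 26 peaks, a ratio of 1.74 (1.42 to 2.13). Over all peaks of each gene, Entpd4 gave 1.40 (1.11 to 1.77), and 1.24 (0.979 to 1.56) with the scaling, Synb 1.26 (0.744 to 2.13) and R3hcc1 0.834 (0.579 to 1.19). Whether the pools of mice differ in the DNA of this stretch was not tested.

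Of the 8985 other tested peaks, the 5 whose log2(CPM + 1) over the 6 libraries was most like that of the Slc25a37 start site by Pearson correlation were the start-site peaks of Idi1 (0.996), 9430015G10Rik (0.993) and Fam98a (0.992), an intergenic peak on chromosome 3 (0.990) and the start-site peak of Wrb (0.990). They share the pattern of KO Tfh214 highest and WT Tfh4 lowest with smaller differences. Idi1, for example, stood at 44.5 (Tfh21), 44.8 (Tfh214) and 40.8 CPM (Tfh4) in WT libraries, against 55.2, 60.1 and 50.1 CPM in the KO counterparts. With 6 libraries and this many peaks, high values are a description of the pattern, which shares the depth and scaling of each library.

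The rest of the iron pathway was taken from 6 lists with 82 genes, of which 73 had a listed peak and 47 had enough reads for the gene-level test. In KO against WT, 0 of the 47 passed in either direction by limma (adjusted p of at least 0.264) or by edgeR, against 0.0554% of all genes by limma. At an unadjusted p under 0.05 by limma there were 3 of the 47, against 1202 of 10825 genes. The median difference of the 47 was 0.16 against 0.07 for all genes tested. The highest were Ciapin1, an early factor of cytosolic iron-sulfur assembly, at 0.45 ± 0.14 (SE) and Cpox, an enzyme of heme synthesis, at 0.42 ± 0.16. The lowest were Alad, another enzyme of heme synthesis, at -0.33 ± 0.21 and Tmprss6, a protease that acts on hepcidin control, at -0.33 ± 0.20. By list, 3 of 13 uptake genes, 2 of 4 storage genes, 3 of 8 export and systemic genes, 11 of 14 heme synthesis genes and carriers, 8 of 13 genes of heme transport and breakdown, and 20 of 30 iron-sulfur genes were tested.

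At start sites 35 of these genes had a tested peak, with a median difference of 0.18 against 0.19 for all tested peaks. In 4 of the 35, or 11.4%, all KO libraries lay above all WT libraries, near the 13.4% of all tested peaks. These were Ncoa4, the receptor that brings ferritin to the lysosome, the mitochondrial carriers Slc25a38 and Slc25a40, and Fdxr, the ferredoxin reductase. Slc25a38, Slc25a39 and Slc25a40, carriers of the same family as the mitoferrins, stood at 0.18, -0.12 and 0.22, and 0 of the 3 passed (adjusted p = 0.466, 0.756 and 0.303, limma).

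The start-site peak of Slc39a8 was the only 1 of the 35 that passed by limma, where 0.857% of all tested peaks passed, and edgeR called 0. At an unadjusted p under 0.05 there were 7 of the 35, and 1885 of all 8986. Slc39a8 encodes ZIP8, a carrier of zinc, manganese and iron. The peak (chromosome 3, 135488274 to 135489606) stood at 48.1 (Tfh21), 59.0 (Tfh214) and 39.3 CPM (Tfh4) in WT libraries, against 64.7, 77.6 and 58.1 CPM in the KO counterparts. KO was above WT in each population, with KO Tfh4 below WT Tfh214. The difference was 0.45 ± 0.12 (SE; adjusted p = 0.0487, limma), and the ratio of reads was 1.35 (1.097 to 1.65). It no longer passed with median-of-ratios scaling, at 0.27 (adjusted p = 0.999, limma), and leaving out WT Tfh21 or KO Tfh21 gave 0.47 (adjusted p = 0.403 and 0.416, limma). Leaving out WT Tfh4 or KO Tfh4 gave 0.41 (adjusted p = 0.111 and 0.123, limma). Over all its alternatives the adjusted p ran from 0.0410 to 0.99993 by limma or edgeR.

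**Figure D5:**
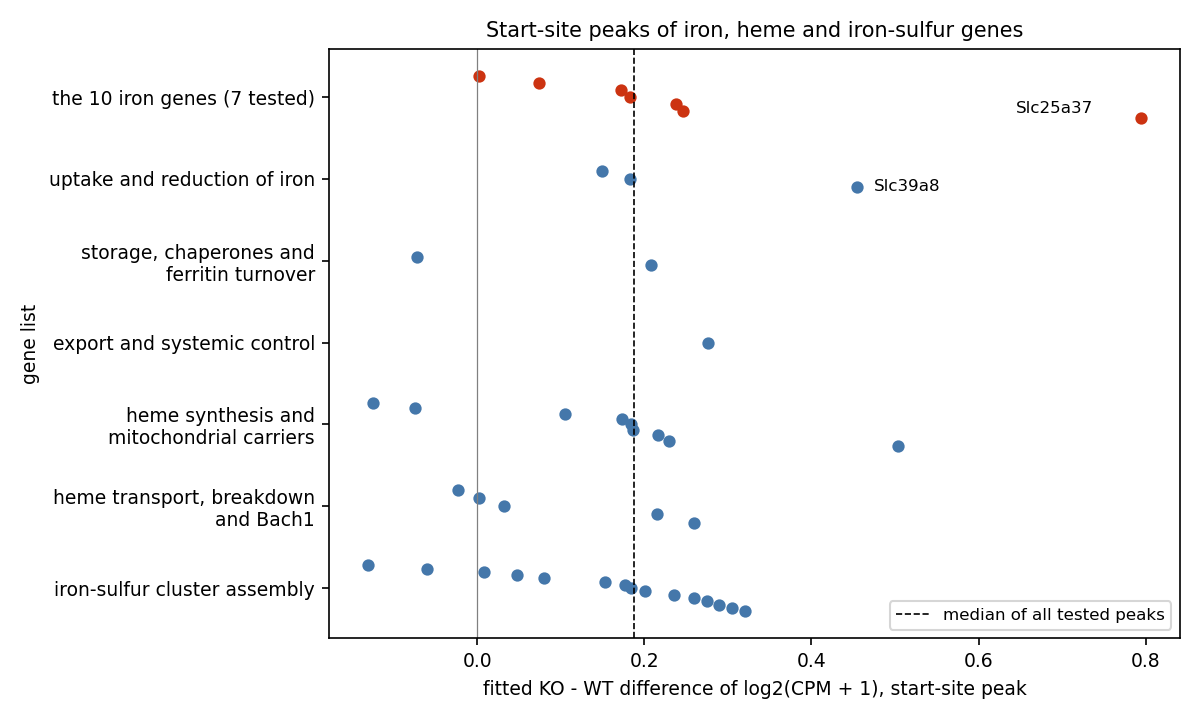
Fitted KO minus WT difference of log2(CPM + 1) at the start-site peaks of 7 tested members (red, first line) and of 35 other genes of iron, heme and iron-sulfur pathways by list (blue), 1 point per gene, with the median of all tested peaks dashed. Slc25a37, chosen on this contrast, lies at 0.79. Slc39a8 lies at 0.45 and Cpox at 0.50, and the remaining genes lie on both sides of the median of 0.19.

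Between the populations, 0 of the 47 genes and 0 of the 35 start sites passed in each of the 3 contrasts by limma or by edgeR, while 1.31% of all tested peaks passed from Tfh21 to Tfh4, 1.98% from Tfh214 to Tfh4 and 0% from Tfh21 to Tfh214 by limma. At an unadjusted p under 0.05 there were 8, 9 and 0 of the 35 start sites, against 2341, 1999 and 345 of 8986 peaks, and 4, 3 and 1 of the 47 genes, against 1377, 1093 and 552 of 10825. From Tfh21 to Tfh4 the lowest gene sums were those of Hmox1, the heme oxygenase, at -0.55 ± 0.32 (SE), and Tmprss6 at -0.51 ± 0.24, and the highest those of Nubpl at 0.28 ± 0.22 and Abcb6 at 0.25 ± 0.27. From Tfh21 to Tfh214 the lowest were Tmprss6 at -0.85 ± 0.24 and Blvra at -0.43 ± 0.28, and the highest included Slc39a8 at 0.29 ± 0.16. From Tfh214 to Tfh4 the lowest included Hmox1 at -0.58 ± 0.32, and the highest Bola3 at 0.41 ± 0.28 and Nubpl at 0.35 ± 0.22.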

How the data were processed

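ATAC-seq values for 6 libraries were used. The authors deposited CPM over 1 common list of peaks in mm9, scaled to the reads in those peaks. Per the submitters' processing notes, Bowtie 1.3.0, MACS2 2.0 and HOMER were named, without their roles. Peak calling on pooled or separate libraries, treatment of duplicates and of reads with several matches, and any shift of cut positions are not given in the sources used here. In these tables, the field headed as gene ID held the symbol. Reads were recovered by dividing by the CPM of 1 read, and at most 4 values in a library lay over 0.02 reads from a whole number. To log2(CPM + 1), limma 3.58.1 (variance trend by mean level) fitted genotype plus population, over 8986 peaks or 10825 gene sums with a mean of at least 20 reads, with 2 residual degrees of freedom, Benjamini-Hochberg adjustment over all of them and a threshold of 0.05. Ratios of reads carry exact binomial and levels exact Poisson 95% intervals. edgeR 4.0.16 with TMM on the recovered reads, median-of-ratios scaling, a pseudocount of 0.25, minimums of 10 reads or none, no variance trend and each library left out in turn were alternatives. Versions were matplotlib 3.10.9, pandas 2.3.3, scipy 1.17.1 and numpy 2.4.6 under Python 3.11.15, and R 4.3.3. The members and lists were chosen with earlier results of these data known. Named were all members, other iron genes that passed or were the 2 highest and 2 lowest per contrast, the 5 peaks most like the Slc25a37 start site, and peaks with at least 5 reads on average within 200 kb of it. Some items that this rule names are not reported here.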

Additional observations from a re-analysis of the deposited data

How the results depend on the processing

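Counts of peaks past the threshold in KO against WT were 77, and 40 with a minimum of 10 reads, 17 with none, 2 with median-of-ratios scaling, 0 without the variance trend (1405 at an unadjusted p under 0.05), 1 with edgeR and 2 to 287 with a library left out. For Tfh4 against Tfh21 they were 118, and in the same order 77, 8, 0 (303 unadjusted), 0 (1759), 0 with edgeR (157) and 0 to 633. For Tfh4 against Tfh214 they were 178, and 111, 9, 0 (509), 0 (1533), 0 (285) and 4 to 252. For Tfh214 against Tfh21 they were 0 (345 unadjusted; 177 by edgeR) and 0 to 2 with a library left out. Counts of genes in KO against WT were 6, and 11 without a minimum, 255 with median-of-ratios scaling, 0 without the trend (961 unadjusted) and 1 to 85 with a library left out. Gene counts for Tfh4 against Tfh21 were 0, and 1 without a minimum, 561 with median-of-ratios scaling, 1 with edgeR and 0 to 121. For Tfh4 against Tfh214 they were 0, and 1, 183 and 0 to 15, and for Tfh214 against Tfh21 they were 0, and 0 to 8. With median-of-ratios scaling 3 of the 255 genes, 560 of the 561 and 183 of the 183 were higher, against 1 of 6 in the first contrast without it. The cause was not tested.

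Small member differences changed sign. In KO against WT with median-of-ratios scaling and with edgeR, the start-site values were -0.18 and -0.20 for Tfrc, -0.11 and -0.0639 for Slc11a2, and -0.0105 and -0.0242 for Ireb2, and that of Fth1 was -0.0028 with the scaling. Gene sums were -0.13 and -0.0139 for Tfrc, and with the scaling -0.0028 for Fth1, -0.0686 for Ftl1 and -0.0356 for Aco1. In Tfh4 against Tfh21 the start-site values were 0.0297 and 0.0179 for Fth1, 0.00409 and 0.00315 for Ftl1, and 0.16 and 0.16 for Ireb2. With a library left out, KO against WT ran from -0.0485 to 0.0727 for the Tfrc and from -0.0627 to 0.34 for the Slc11a2 start site, and from -0.27 to 0.16 for the Slc11a2, -0.0115 to 0.23 for the Ftl1 and -0.38 to 0.23 for the Steap3 sum. Tfh4 against Tfh21 ran from -0.39 to 0.18 for Ireb2, and Tfh214 against Tfh21 from -0.0345 to 0.34 for Slc25a37. The Slc25a37 start site in KO against WT was 0.61 with median-of-ratios scaling, 0.62 with edgeR and 0.67 to 0.89 with a library left out. Its Tfh4 against Tfh214 value stayed negative and passed in 2 alternatives, a pseudocount of 0.25 (adjusted p = 0.04997, limma) and without WT Tfh214 (adjusted p = 0.0415, limma). The calls of Slc39a8 and Entpd4 in KO against WT, tried after the data were seen, were kept without either Tfh214 library. With a library left out, its population rests on 1 library, assumed to vary like the others. Population was a term of each fit, so KO and WT were compared within populations. Depth limits Slc40a1, Slc25a28 and single peaks of Steap3.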
